A study of Mus musculus with 25 samples.

Results

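The proteasome subunit genes were followed across the brain cortex of 25 male mice. They were taken as every row of the count table whose symbol is Psma, Psmb, Psmc, Psmd or Psme followed by a number, with the immunoproteasome genes Psmb8 and Psmb9 left out. This gave 41 genes of the 21720 in the table, and 41 of 41 entered the test across genes. RNA sequencing was done at 6 months of age in 5 groups of 5 mice (n = 5, 1 library per mouse). Wild type mice were of strain C57BL/6J and received vehicle. The other groups were of strain B6C3 and carried the transgenes APPswe and PSEN1dE9, an amyloid model of Alzheimer's disease. Of these, model control mice received vehicle, vestitol mice received (-)-vestitol at 5 mg/kg, salviolone mice received salviolone at 5 mg/kg, and combination mice received both at 2.5 mg/kg each. All mice, wild type included, were injected into the peritoneum every day for 3 months. Strain and transgenes changed together, so a difference between model control and wild type cannot be assigned to one of them. As background, the transgenes of this line are driven by a prion protein promoter. Nothing in the labels says how the cortex was dissected.

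The proteasome degrades proteins that carry ubiquitin chains. Its 20S core is a barrel of alpha rings, which form the gate, and beta rings, which hold the proteolytic sites. The 19S cap recognises ubiquitin, unfolds the substrate with a ring of ATPases and feeds it to the core. Other activators open the same gate: the 11S (PA28) activators encoded by Psme1, Psme2 and Psme3, and PA200, encoded by Psme4. In brain the complex clears misfolded proteins, and its activity at synapses is known to be regulated.

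Library totals ranged from 59376320 to 109776852 counts. Levels are given as CPM, counts per 1000000 counts of a library after trimmed-mean (TMM) scaling. Correlations of log2 CPM between mice of a group ranged from 0.963 to 0.983. Marker genes were set beside the labels and the tissue. The summed level of 12 microglia genes ranged from 359.5 to 430.3 CPM in wild type and from 478.9 to 614.04 CPM in model control mice, with no overlap. In the treated groups it ranged from 447.2 to 674.5 CPM and overlapped model control, so it does not check the treatment labels. Genes typical of cortical excitatory neurons were present in every group. A list of 15 genes typical of hypothalamus and basal forebrain, regions outside the cortex, was present too and differed between groups and within the wild type group. A score was formed as the average of log2 CPM over its genes. It was 3.00 ± 1.23 (SD) in wild type, 1.67 ± 0.62 in model control, 1.22 ± 0.38 in vestitol, 1.78 ± 0.30 in salviolone and 4.27 ± 0.68 in combination mice. Wild type mouse 2, at 0.96, lay within the range of the vestitol mice, and model control mouse 1 was the highest of its group at 2.77. The combination mice, from 3.36 to 4.94, lay above every mouse of the other transgenic groups. One library, wild type mouse 3, had 6028 CPM of 4 pituitary genes. These values are set beside the results they move with.

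Proteasome genes were expressed at steady, moderately high levels. Of the 41 genes, 39 had a mean of at least 5 CPM, from 12.1 CPM for Psmd10 to 272 CPM for Psmd2. Together the 41 genes held 0.274% to 0.303% of the counts of a library. Divided by exon length, the ATPase genes Psmc5 and Psmc1 were highest, at 134 ± 6.61 and 123 ± 5.8 CPM per kilobase (SD, 25 mice). Psmb7, which encodes the trypsin-like catalytic subunit, followed at 92.9 CPM per kilobase, and Psmd2, a scaffold of the 19S base, at 91.9. Psmd1, the other scaffold of the base, stood at 42.8 CPM per kilobase, which was the median of the 39 expressed genes. The other constitutive catalytic subunits, Psmb5 (chymotrypsin-like) and Psmb6 (caspase-like), were at 68.2 and 76.9 CPM per kilobase.

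Levels were uneven within the rings, whose subunits are used in equal numbers. Among the 7 alpha subunits of the standard core, Psma3 was lowest at 12 CPM per kilobase and Psma7 highest at 68.8. In the beta ring, Psmb1 was lowest at 16.7 CPM per kilobase. Psmc6 was the lowest ATPase gene, at 14.9 CPM per kilobase. The 3 genes for chaperones of 19S assembly, Psmd5, Psmd9 and Psmd10, lay between 8.23 and 9.81 CPM per kilobase. Psme4 was the lowest of the 39 expressed genes, at 4.33 CPM per kilobase. These lengths count every annotated exon of a gene, so a gene with a long exon that is rarely used appears lower. The choice of length matters: across the 41 genes the deposited FPKM, which rest on another length, ranked Psmd2 first and Psmc5 in place 9. The orders within the rings and roles changed as well. By FPKM, Psmb1 (36.7) lay above Psmb2 (15.6), and Psmc6 (24.8) above Psmc2 (19.8). In the alpha ring, Psma4 (16.1) lay below Psma3 (18.8) and Psma2 (53.7) above Psma7 (36.7). The chaperone genes Psmd5, Psmd9 and Psmd10 were spread, at 64.6, 49.7 and 13.3. The lengths that these FPKM imply were between 0.137 and 3.92 times the exon lengths of the 41 genes. The order by FPKM is therefore uncertain itself and is given only as a description. The annotated spans of 7 of the genes overlap a neighbour (Psme1, Psma2, Psma4, Psmb7, Psmc3, Psmd1 and Psmd13), and their counts are less certain because strand use in counting is not known.

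**Figure D1:**
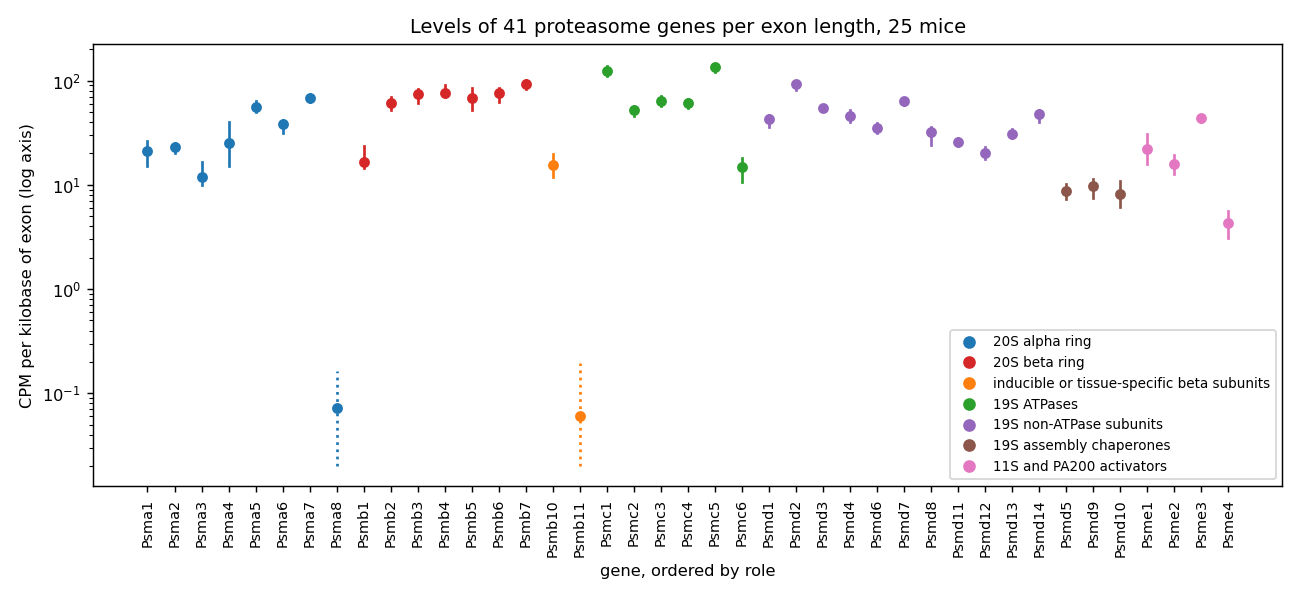
Level of each of 41 proteasome genes per exon length, in CPM per kilobase on a log axis. Points are means of 25 mice and lines run from the lowest to the highest mouse (dotted where the lowest mouse was at 0); 39 genes lie above 3 CPM per kilobase in every mouse, and Psma8 and Psmb11 lie below 0.2.

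Genes whose products belong to other tissues were near 0. Psma8, which encodes the alpha subunit of the testis proteasome, averaged 0.122 CPM, with a highest count of 20 in a library. Psmb11, the catalytic subunit of the thymus proteasome, averaged 0.257 CPM and had at most 64 counts. Both had wide intervals in every comparison and passed the test in none. Psmb10, the third interferon-inducible catalytic subunit beside Psmb8 and Psmb9, was expressed at 20.5 CPM, or 15.6 CPM per kilobase. Psmb8 had group means between 3.91 and 4.86 CPM, and Psmb9 between 1.41 and 1.88 CPM.

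Proteasome genes varied little between mice of a group. The residual SD of log2 CPM had a median of 0.09 over the 39 expressed genes, against 0.14 over the 11687 tested genes with a mean of at least 5 CPM. The sets were not matched for level, as the lowest of the 39 genes had a mean of 12.1 CPM. The part that level plays in the difference was not tested. The steadiest was Psmd7, the lid partner of the deubiquitinase Psmd14, at 0.05. Its group means lay between 98.95 and 104.9 CPM. The most variable expressed gene was Psma4, with an SD of 0.31. It ranged from 17.8 CPM in salviolone mouse 5 to 46.8 CPM in model control mouse 4, and its groups overlapped in every comparison.

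For the genes that differed most between groups, the promoter region shows what sequence surrounds the start site. RefSeq promoters (build GRCm38.p6, 250 bases before to 50 after the start) were found for 34 of the 41 genes. Promoters are shown for 4 of the genes called in a comparison with the combination group, those that held a match to a searched motif: the activators Psme1 and Psme4, the alpha subunit Psma3 and the beta subunit Psmb6. They lie at chr14:55578244-55578543, chr11:30771525-30771824, chr12:70974373-70974672 and chr11:70525107-70525406, in that order, all on the plus strand. Capitals mark matches to the searched motifs, on either strand, in 5′ to 3′ order of the gene.
Psme1: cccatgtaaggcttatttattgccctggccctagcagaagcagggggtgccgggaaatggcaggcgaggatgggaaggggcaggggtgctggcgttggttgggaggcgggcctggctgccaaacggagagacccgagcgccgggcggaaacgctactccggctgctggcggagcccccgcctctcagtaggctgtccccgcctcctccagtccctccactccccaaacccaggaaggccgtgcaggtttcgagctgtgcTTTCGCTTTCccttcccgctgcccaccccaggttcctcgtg
Psme4: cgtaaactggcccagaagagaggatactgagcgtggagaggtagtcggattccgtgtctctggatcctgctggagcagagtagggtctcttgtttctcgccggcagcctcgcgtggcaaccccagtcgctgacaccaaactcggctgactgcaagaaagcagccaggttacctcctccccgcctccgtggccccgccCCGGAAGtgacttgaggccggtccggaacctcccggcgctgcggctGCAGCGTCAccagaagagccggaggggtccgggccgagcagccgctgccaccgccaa
Psma3: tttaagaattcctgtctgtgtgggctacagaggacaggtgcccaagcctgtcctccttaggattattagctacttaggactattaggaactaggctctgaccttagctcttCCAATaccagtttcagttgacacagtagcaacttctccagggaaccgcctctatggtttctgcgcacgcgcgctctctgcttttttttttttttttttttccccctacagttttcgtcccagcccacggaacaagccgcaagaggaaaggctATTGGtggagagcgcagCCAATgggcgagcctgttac
Psmb6: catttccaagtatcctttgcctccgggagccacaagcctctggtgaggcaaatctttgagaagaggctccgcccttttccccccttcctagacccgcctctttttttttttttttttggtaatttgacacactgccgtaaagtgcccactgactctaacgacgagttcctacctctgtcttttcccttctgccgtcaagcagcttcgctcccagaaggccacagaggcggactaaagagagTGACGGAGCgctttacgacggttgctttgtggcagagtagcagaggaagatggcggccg

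The 4 motifs searched, on both strands, were the core of the antioxidant response element (TGACNNNGC), the NF-Y box (CCAAT), an ETS site (CCGGAAG) and the interferon-stimulated response element (GAAA, then any 2 bases, then GAAA). Psmb10, also called, held no match, and Psmb1 and Psmb2 had no promoter in the table. None of the matches overlapped another in the promoters shown. Psme1 held 1 match, an interferon-stimulated response element read on the minus strand that begins 10 bases into the transcript. Psme4 held an ETS site 53 bases before the start and an antioxidant response core on the minus strand 7 bases before it. Psma3 held 3 NF-Y boxes and Psmb6 an antioxidant response core 9 bases before the start. An ETS site was present in 35.3% of the 34 proteasome genes and in 8.86% of all 32851 promoters. The interferon element was present in 11.8% against 3.44%, the antioxidant core in 17.6% against 12.4%, and the NF-Y box in 38.2% against 37.4%. These are matches of letters in a window and describe no binding. Several promoters of 1 gene were counted as 1 gene for the proteasome genes, and each promoter was counted by itself for the rest.

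The first comparison asked how the model differed from wild type. Proteasome genes were nearly level: 1 of 41 fell, Psme1, and none rose at a Benjamini-Hochberg adjusted p under 0.05 (edgeR, quasi-likelihood fit). Over all 16515 genes tested, 11.6% were called, 5.37% higher and 6.21% lower. At an unadjusted p under 0.05 it was 5 of 41 proteasome genes and 25.8% of all genes. No proteasome gene had groups that did not overlap, against 4.57% of all genes. The median log2 fold change of the 41 genes was 0.02, and that of all genes tested was -0.01. For 33 of the 41, the 95% interval lay within 0.32 of 0 on the log2 scale, against 6195 of all 16515 genes. The sets were not matched for level, here and in the same counts below.

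Psme1 encodes PA28 alpha, which forms the 11S activator ring with PA28 beta. Its levels in wild type mice 1 to 5 were 30.1, 20.5, 31.9, 33.6 and 28.5 CPM. In model control mice 1 to 5 they were 26.2, 18.6, 24, 19.6 and 22.1 CPM. Wild type mouse 2 lay among the model control mice, so the groups overlapped, and 5 of 5 model control mice lay below the wild type mean. The log2 fold change was -0.39 ± 0.11 (SE), with an adjusted p of 0.0211 in edgeR's test. The hypothalamus score moved with it: wild type mouse 2 had both the lowest score and the lowest Psme1 of its group, and model control mouse 1 had both the highest score and the highest Psme1. With the score as a covariate the difference was -0.17 ± 0.11, at an adjusted p of 0.508. The call was also lost without wild type mouse 3 or 4, or without model control mouse 2 or 4.

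Psme2, which encodes the partner PA28 beta, did not follow: its means were 14.9 ± 2.34 CPM (SD) in wild type and 15.7 ± 1.26 CPM in model control mice. A near-identical copy, Psme2b, was counted separately at 4.18 and 3.48 CPM, so reads may have been divided between them. Interferon is known to induce Psme1, Psme2 and Psmb10. Of 20 interferon response genes, 6 rose in model control mice and none fell. Of the 12 microglia genes 8 rose, where 5.37% of all genes rose. Psmb10 was at 18.9 ± 1.33 CPM in wild type and 20.6 ± 2.52 CPM in model control mice, a log2 fold change of 0.12 ± 0.09 with an adjusted p of 0.422. Psmb9 had a difference of 0.41 ± 0.23 and Psmb8 of -0.01 ± 0.19, and neither passed the test. In bulk tissue, more cells of a type and more RNA per cell cannot be told apart.

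The next smallest p-values belonged to 3 genes that did not pass. The noncatalytic beta subunit Psmb2 differed by -0.15 ± 0.05 (adjusted p 0.0638 in edgeR's test). The ATPase gene Psmc6 differed by 0.24 ± 0.09 (adjusted p 0.0752). The alpha subunit Psma4 differed by 0.51 ± 0.19 (adjusted p 0.0854). Psma4 levels in wild type mice 1 to 5 were 33.4, 28.9, 26.3, 18.8 and 22.0 CPM, and in model control mice 35.7, 38, 33.4, 46.8 and 30.1 CPM. Model control mice were higher on the whole, with an overlap of wild type mouse 1. By role, 0 of 8 alpha ring, 0 of 7 beta ring, 0 of 6 ATPase, 0 of 11 non-ATPase and 0 of 3 chaperone genes were called.

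No proteasome gene passed the test with either compound alone. Vestitol against model control gave 0 of 41 calls in edgeR's test, where 0% of all genes were called. Without adjustment, 2 of 41 had a p under 0.05, against 7.56% of all genes. DESeq2 and limma-voom called none either. The 4 smallest p-values belonged to Psme4 (0.16 ± 0.07 on the log2 scale), the nuclear 11S gene Psme3 (-0.09 ± 0.04), Psmd8 (-0.15 ± 0.08) and Psma6 (-0.11 ± 0.07), all with an adjusted p over 0.6. Psmd8, a subunit of the 19S lid, was between 65.4 and 67.7 CPM in vestitol mice and between 68.04 and 79.6 CPM in model control mice, without overlap. Groups did not overlap for 1 of 41 proteasome genes, against 268 of all 16515 genes. The median over the 41 genes was -0.01, and over all genes it was -0.002. For 36 of 41 genes the 95% interval lay within 0.32 of 0, against 7621 of all 16515 genes.

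Salviolone against model control also gave 0 of 41 calls, where 0.0242% of all genes were called. Without adjustment, 6 of 41 had a p under 0.05, against 11.5% of all genes, and DESeq2 and limma-voom called none. The genes with the smallest p-values were the beta subunit Psmb3 (0.18 ± 0.06, adjusted p 0.226), Psma4 (-0.57 ± 0.19, adjusted p 0.244), the ATPase Psmc3 (0.14 ± 0.05, adjusted p 0.258) and the lid subunit Psmd12 (-0.16 ± 0.06, adjusted p 0.298). Psma4 was at 32, 34.2, 20.2, 19.6 and 17.8 CPM in salviolone mice 1 to 5. Mice 1 and 2 lay within the range of the model control group, and the other 3 lay below it. The median over the 41 genes was 0.02, and 33 of 41 intervals lay within 0.32 of 0, against 7215 of all 16515.

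The compounds were also set against each other at their matched dose of 5 mg/kg and 3 months. They are unrelated natural products: vestitol is an isoflavan and salviolone a diterpenoid. None of 41 proteasome genes differed at an adjusted p under 0.05, where 0.684% of all genes did. At an unadjusted p under 0.05 it was 5 of 41, against 11.7% of all genes. The smallest p-value belonged to Psme4, higher with vestitol by 0.20 on the log2 scale (95% interval 0.05 to 0.35, adjusted p 0.226 in edgeR's test). For Psme1 the difference was 0.04 (interval -0.19 to 0.26). Intervals lay within 0.32 of 0 for 7367 of all 16515 genes and for 33 of the 41 proteasome genes. Among the others were Psma3 (0.05 to 0.49) and Psma4 (-0.11 to 0.67).

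**Figure D2:**
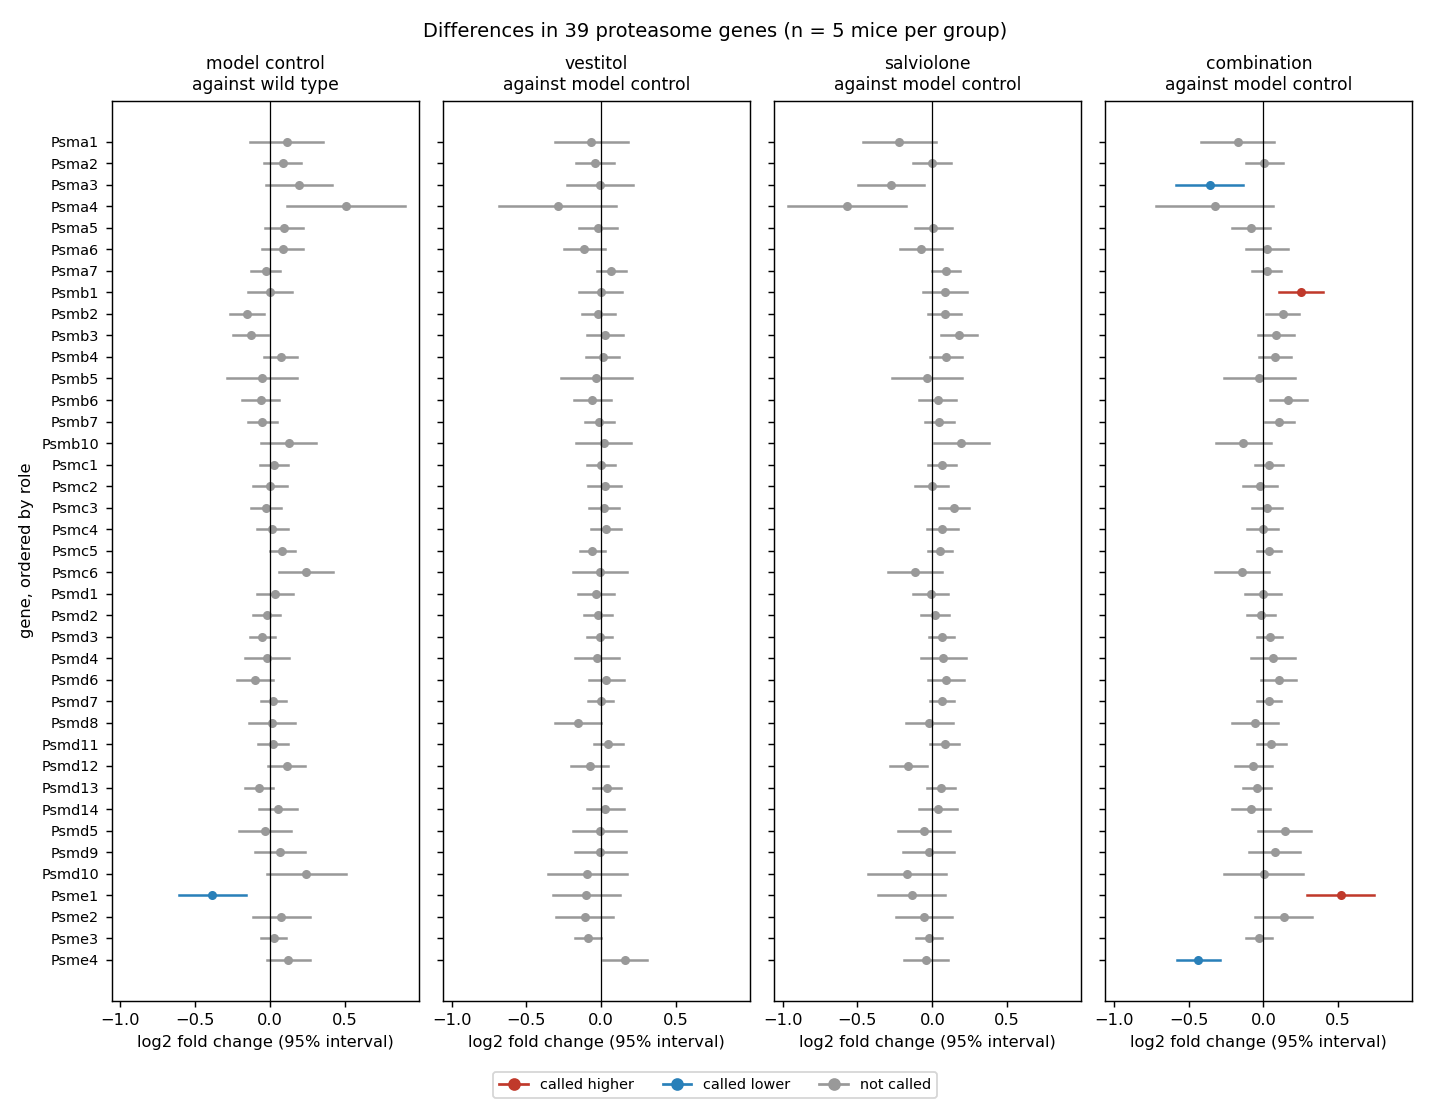
Log2 fold change of 39 expressed proteasome genes in 4 comparisons, with 95% intervals, ordered by role (n = 5 mice per group). Psme1 is called lower in the model control mice and higher with the combination, Psme4 and Psma3 are called lower and Psmb1 higher with the combination, and no gene is called with either compound alone.

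In the combination against model control, 4 of 41 genes were called: Psme1 and Psmb1 rose, and Psme4 and Psma3 fell. Over all genes 15.0% were called, 7.83% higher and 7.13% lower, and 4 of 41 is not above that background. At an unadjusted p under 0.05 it was 7 of 41, against 28.0% of all genes. Groups did not overlap for 4 of 41 genes (Psme1, Psme4, Psmb1 and Psmb7), against 12.6% of all genes. The median log2 fold change was 0.01 over the 41 genes and 0.00 over all genes. Intervals lay within 0.32 of 0 for 31 of 41 genes, against 5974 of all 16515.

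Of the 4 activator genes, Psme1 rose, Psme4 fell, and Psme2 and Psme3 did not pass. Psme1 levels in combination mice 1 to 5 were 30.9, 33.9, 30.5, 33 and 29.9 CPM. Every combination mouse was above every mouse of the model control, vestitol and salviolone groups, the highest of which was at 26.2 CPM. Of the 5, 4 lay within the range of the wild type group. The log2 fold change against model control was 0.52 ± 0.11 (SE), with an adjusted p of 0.00219 in edgeR's test. The span of Psme1 overlaps that of Emc9, which was counted at 11.2 ± 0.79 CPM in model control and 13.8 ± 1.1 CPM in combination mice. Of the 20 interferon response genes, none rose in the combination against model control and 2 fell, Ifit1 and Ifit2. Over all genes 7.13% fell. The list lay lower as a whole: 0 of 20 had a log2 fold change above 0, and the median was -0.40. At an unadjusted p under 0.05 in edgeR's test it was 10 of 20, against 28.0% of all genes. A link to Psme1 was not tested. Psme2 was at 17.2 ± 1.55 CPM in combination mice, a difference of 0.13 ± 0.09 from model control that did not pass (adjusted p 0.364).

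Psme4 encodes PA200, a single-chain activator known from histone degradation and DNA repair. Its levels in model control mice 1 to 5 were 29.7, 29.6, 28.2, 29.7 and 30.7 CPM. In combination mice 1 to 5 they were 20.2, 23, 23.4, 21.8 and 21.1 CPM. The combination mice were below all 20 other mice, the lowest of which was wild type mouse 4 at 24.3 CPM. The log2 fold change was -0.43 ± 0.07, with an adjusted p of 0.000384 in edgeR's test. Psme3 differed by -0.03 ± 0.04 and did not pass.

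In the core, Psmb1 rose and Psma3 fell. Psmb1 encodes a beta subunit without proteolytic activity. It was at 52.8, 54.5, 55.5, 57 and 52.2 CPM in model control mice 1 to 5 and at 59.6, 65.1, 58.3, 81 and 59.5 CPM in combination mice 1 to 5. Combination mouse 4 stood apart from the other 4, which lay just above the model control range. The log2 fold change was 0.25 ± 0.07 with an adjusted p of 0.0181 in edgeR's test. Without combination mouse 4 it was 0.15 ± 0.06 and the call was lost, at an adjusted p of 0.0896. With only the 2 groups in the fit the call was lost too, at an adjusted p of 0.0607 in edgeR's test.

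Psma3 was at 35.9, 45.0, 34.3, 45.6 and 29.2 CPM in model control mice 1 to 5 and at 30.1, 28.9, 31.3, 28.5 and 29.3 CPM in combination mice 1 to 5. The model control mice were spread widely and their lowest lay inside the combination range. The log2 fold change was -0.36 ± 0.11 with an adjusted p of 0.0238 in edgeR's test. The call was lost without model control mouse 2 or 4, or without combination mouse 4.

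Of the other beta ring genes, 5 of 6 were above 0 in the combination against model control, none of them called. The catalytic subunit Psmb6 was higher by 0.17 ± 0.06 (adjusted p 0.063), Psmb2 by 0.13 ± 0.05 (adjusted p 0.109) and Psmb7 by 0.11 ± 0.05 (adjusted p 0.133). The catalytic subunit Psmb5 stood at -0.03 on the log2 scale, with mice spread from 49.3 to 67.9 CPM in the combination group. Psmb10 was at 18.7 ± 2 CPM in combination mice, -0.13 ± 0.09 from model control. The median over the 7 beta ring genes was 0.11, that of the 8 alpha ring genes -0.08, that of the 6 ATPase genes 0.01 and that of the 11 non-ATPase genes -0.004. The scaffold genes Psmd1 and Psmd2 and the ATPase Psmc1 had group means of 131.4 to 134.7, 267.8 to 276.4 and 189.6 to 202.01 CPM over the 5 groups and were called in no comparison.

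**Figure D3:**
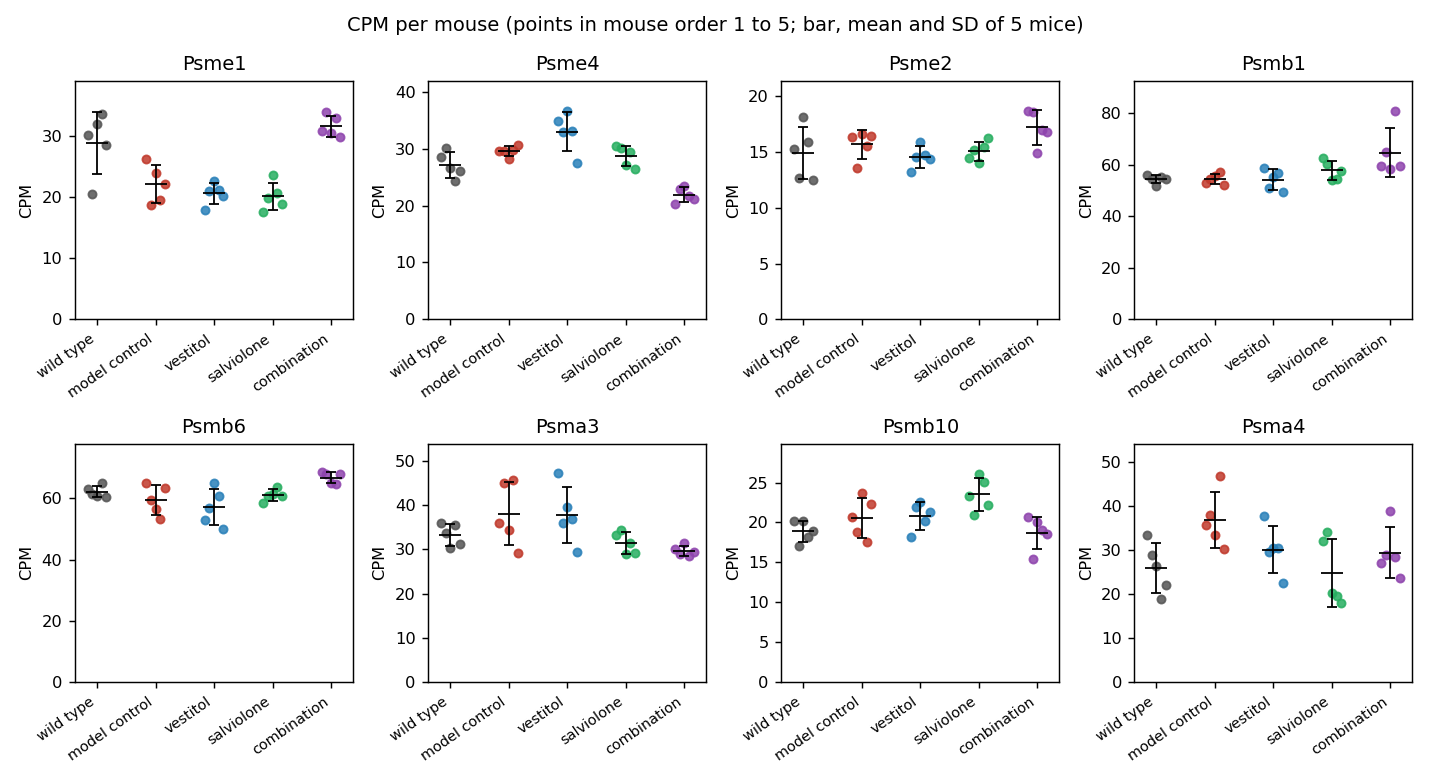
CPM of 8 proteasome genes in each of 25 mice, by group, with the mean and SD of 5 mice (axes start at 0). Psme1 in the combination mice lies between 29.9 and 33.9 CPM, above all mice of the other transgenic groups, and Psme4 lies between 20.2 and 23.4 CPM, below all other mice; Psmb1 is raised most in combination mouse 4 and Psma4 is scattered in every group.

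Against the single compounds, whose doses per compound differ from those in the combination (5 against 2.5 mg/kg), Psme1 was again higher and Psme4 lower in the combination mice, and Psme2 and Psme3 did not pass. Against vestitol, 6 of 41 genes were called, 4 higher and 2 lower. Over all genes 21.9% were called, 11.3% higher and 10.6% lower. Unadjusted p-values were under 0.05 for 10 of 41, against 33.5% of all genes, and groups did not overlap for 2 of 41, against 18.1%. Psme1 was higher by 0.62 ± 0.11 (adjusted p 0.000249 in edgeR's test), from 18 to 22.7 CPM in vestitol mice. Psme4 was lower by -0.59 ± 0.07 (adjusted p 1.81e-05), from 27.5 to 36.6 CPM in vestitol mice. These were the 2 genes without overlap.

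The beta ring genes Psmb1, Psmb6 and Psmb2 were also higher in the combination than in vestitol mice. Psmb6 was at 53.1, 57, 65.1, 60.9 and 50 CPM in vestitol mice 1 to 5 and at 68.5, 67.9, 65.1, 64.7 and 67.9 CPM in combination mice 1 to 5. The vestitol mice were spread more widely and only mouse 3 reached the combination range. The difference was 0.22 ± 0.06 (adjusted p 0.00825 in edgeR's test). Psmb1 differed by 0.25 ± 0.07 (adjusted p 0.0113) and Psmb2 by 0.15 ± 0.05 (adjusted p 0.0491). The Psmb1 call was lost without combination mouse 4, and with only the 2 groups in the fit (adjusted p 0.0535 in edgeR's test). The Psmb2 call was lost in 17 of 23 alternatives, among them both other count filters (adjusted p 0.0628 and 0.051) and every omission of a single mouse except vestitol mouse 4. Psma3 was lower by -0.35 ± 0.11 (adjusted p 0.0202; lost without vestitol mouse 1). The median over the 41 genes was 0.04, against 0.00 over all genes.

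Against salviolone, 3 of 41 genes were called, 1 higher and 2 lower. Over all genes 17.9% were called, 9.66% higher and 8.23% lower. Unadjusted p-values were under 0.05 for 9 of 41, against 29.6% of all genes, and groups did not overlap for 4 of 41, against 15.8%. Psme1 was higher by 0.65 ± 0.11 (adjusted p 0.000151 in edgeR's test) and Psme4 lower by -0.39 ± 0.07 (adjusted p 0.000331). The third was Psmb10, the inducible catalytic subunit. It was at 23.4, 21, 26.1, 25.03 and 22.1 CPM in salviolone mice 1 to 5 and at 20.6, 15.5, 20.02, 19.01 and 18.5 CPM in combination mice 1 to 5. Every combination mouse was below every salviolone mouse. The log2 fold change was -0.33 ± 0.09, with an adjusted p of 0.0113 in edgeR's test. Psmb8 and Psmb9 differed by -0.20 ± 0.19 and -0.23 ± 0.23 and did not pass. Psmb6 did not overlap either but was not called (0.13 ± 0.06, adjusted p 0.15). The median over the 41 genes was -0.01, against 0.00 over all genes. The 3 comparisons share the same combination mice and are not independent of each other.

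Genes of other brain regions moved with these results. In the combination against model control, 12 of 15 hypothalamus genes and 6 of 7 striatum genes rose, and 4 of 7 genes of cortical excitatory neurons fell. Over all genes 7.83% rose and 7.13% fell. The summed level of the hypothalamus genes was 863.7 to 1372 CPM in combination mice, 348.9 to 637.2 CPM in model control, 327.9 to 449.5 CPM in vestitol, 325.3 to 376.8 CPM in salviolone and 381.4 to 1153 CPM in wild type mice. No gene of these lists was at 0 throughout a group. Among wild type mice, Psme1 was lowest and Psme4 highest in mouse 2, the mouse with the lowest score, at 20.5 and 30.1 CPM. Not every group showed this order: in combination mice, mouse 1 had the lowest score and the lowest Psme4, at 20.2 CPM, and in model control mice, mouse 3 had the lowest score and the second highest Psme1, at 24.0 CPM. With the score as a covariate, no proteasome gene was called in any of the 7 comparisons. In the combination against model control, Psme1 then stood at 0.12 ± 0.15 and Psme4 at -0.31 ± 0.11, with adjusted p-values of 0.963 and 0.841 in edgeR's test. Other differences were larger but did not pass either: Psme4 against vestitol stood at -0.44 ± 0.13 (adjusted p 0.356) and Psmb10 against salviolone at -0.37 ± 0.15 (adjusted p 0.513), against -0.59 and -0.33 without the covariate. Over all genes the calls of the combination against model control fell from 2471 to 0. The score does not overlap between the combination and the other transgenic groups, so treatment and region of the sample cannot be told apart there.

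**Figure D4:**
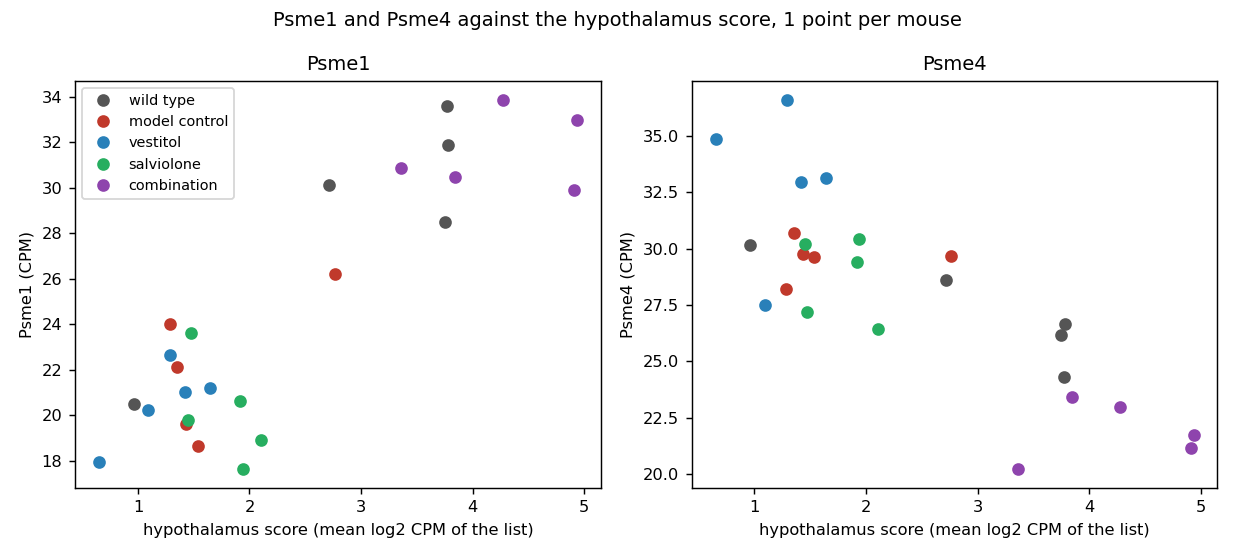
CPM of Psme1 (left) and Psme4 (right) against the score of 15 hypothalamus genes (average log2 CPM), with 1 point per mouse colored by group. Mice with a score above 3.3 are the 5 combination mice and 3 wild type mice; Psme1 lies above 28 CPM in all of them, and wild type mouse 2, at a score of 0.96, lies at 20.5 CPM for Psme1 and 30.1 CPM for Psme4.

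The rest of the pathway was followed in 38 further genes: ubiquitin and its activating enzymes, core assembly chaperones, proteins bound to the proteasome, ubiquitin shuttles, and regulators of proteasome gene transcription. In model control against wild type, 3 of 38 rose and none fell, where 5.37% of all genes rose and 6.21% fell, so the share is near the background. Pomp, the maturation factor of the core, rose by 0.24 ± 0.05 (adjusted p 0.00612 in edgeR's test), from 65 ± 4.92 to 76.5 ± 4.17 CPM. The shuttle gene Ubqln1 rose by 0.22 ± 0.05 (adjusted p 0.00373), and the activating enzyme Uba6 by 0.32 ± 0.10 (adjusted p 0.0491). With the hypothalamus score as a covariate, the calls over all genes in this comparison fell from 1913 to 102. Whether these 3 genes kept their calls is not given here. No gene of the 38 passed with vestitol or salviolone against model control, where 0% and 0.0242% of all genes did. Between the compounds 1 of 38 differed, where 0.684% of all genes did. This was Zfand5, which binds and activates the proteasome, higher with vestitol by 0.38 ± 0.09 (adjusted p 0.0433 in edgeR's test).

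In the combination against model control, 3 of 38 rose and 4 fell, where 15.0% of all genes were called, so this share too is near the background. The polyubiquitin gene Ubb rose by 0.17 ± 0.04, the shuttle gene Ubqln2 by 0.23 ± 0.05 and the ubiquitin receptor gene Adrm1 by 0.16 ± 0.05. Zfand5 fell by 0.34 on the log2 scale (SE 0.09), Uba6 by 0.31 (SE 0.10), the proteasome adaptor gene Ecpas by 0.19 (SE 0.05) and the protease gene Ddi2 by 0.16 (SE 0.05). Against vestitol 3 rose and 5 fell, where 21.9% of all genes were called, among them the deubiquitinase genes Usp14 (-0.40 ± 0.13) and Uchl5 (-0.35 ± 0.12). Against salviolone 1 of 38 rose, Ubqln2 by 0.19 ± 0.05, and none fell, where 17.9% of all genes were called. Nfe2l2 was called in no comparison. The calls of the combination named here come from the fit without the hypothalamus score. Once that score was added, 0 of 16515 genes were called against model control and 0 against salviolone. The pathway calls in those comparisons were therefore lost. Against vestitol, 0 genes were then called higher and 2 lower, so the rises were lost too. Whether the 2 lower genes belong to the 38 is not given here.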

How the data were processed

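RNA-seq of brain cortex from 25 male mice was used, 5 per group. Per the submitters' processing notes, reads were trimmed with Trim Galore and aligned with STAR to mm39. Versions, the counter, the annotation and strand use are not stated in the sources at hand, and the labels name both a TruSeq and a SMARTER kit. The deposited gene counts are whole numbers, not normalized. The deposited FPKM follow from these counts, but their implied gene lengths differ from GENCODE M21 exon lengths (rho 0.156 across 16790 genes), so levels per kilobase were computed here from counts and GENCODE lengths, as a description.

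Genes passing filterByExpr (minimum count 10; 16515 genes) were tested with edgeR 4.0.16 (TMM, robust quasi-likelihood, all 25 samples, 5 group means, 7 comparisons, Benjamini-Hochberg over all genes, threshold 0.05), in R 4.3.3. Alternatives used DESeq2 1.42.0 and limma 3.58.1, with FPKM on the log2(value + 0.1) or log2(value + 1) scale. The test was checked on simulated data. Totals of 59376320 to 109776852 counts mean that 3 counts, the limit a 0 allows, are under 0.1 CPM. The main fit used every library without sample weights, and only the limma-voom alternative used such weights.

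The genes and lists were chosen with earlier results of these data known. Named were the called proteasome genes of each comparison (the 4 with the smallest p where fewer than 4 were called), the catalytic and 11S genes, those with the highest and lowest FPKM, and up to 4 called genes of each other list. Nfe2l1, Nfe2l2 and the genes of the description of levels were named after their values were seen. Same-numbered mice did not deviate together (r from -0.09 to 0.09 over 50 pairs).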

Additional observations from a re-analysis of the deposited data

Results flagged for a closer look

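Of 24 named genes in 5 groups, 120 sets of 5 mice were examined for a mouse far from the other 4, and 2 had one. Chance gives about 1 in 20. Psmb11 was at 0 CPM in wild type mouse 4, against 0.147 to 0.203 CPM in the other wild type mice, all near the limit of detection. Psmd8 was at 78.3 CPM in salviolone mouse 4, against 70.1 to 72.3 CPM in the other salviolone mice.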

How the results depend on the processing

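Proteasome genes called higher in model control against wild type (0) became 1 with DESeq2 (Psma4) and 2 with limma-voom, and 0 to 1 when a mouse was left out. Those called lower (1) became 2 with limma-voom and with each FPKM setting (Psmb2 joined Psme1), 0 with only the 2 groups or with the hypothalamus score (or also the striatum score) as covariate, and 0 to 2 when a mouse was left out (0 without model control mouse 2 or 4 or wild type mouse 4; 2 without model control mouse 1 or wild type mouse 2). For the combination against model control, the genes called higher (2) became 1 with only the 2 groups, 0 with either covariate set, and 1 to 3 when a mouse was left out. The genes called lower (2) became 1 with FPKM without a filter, 0 with either covariate set, and 1 to 2 when a mouse was left out. Against vestitol, those called higher (4) became 7 with filtered FPKM plus 0.1 or plus 1 and 0 with either covariate set, and 2 to 5 when a mouse was left out. With only the 2 groups, Psmb1 and Psmb2 lost their calls against vestitol (adjusted p 0.0535 and 0.0765 in edgeR's test). Those called lower (2) became 1 with FPKM without a filter, 0 with either covariate set, and 1 to 2 when a mouse was left out. Against salviolone, those called higher (1) became 2 with only the 2 groups, 0 with either covariate set, and 1 to 2 when a mouse was left out. Those called lower (2) became 0 with either covariate set. For both compounds alone and between them the count was 0 in every alternative run. The hypothalamus and striatum pair of covariates was chosen after seeing the data. The replicate block raised the model comparison's count of higher genes from 0 to 1 (Psma4, adjusted p 0.0332 in edgeR's test) and ended the call of Psmb2 against vestitol (adjusted p 0.0602). No named gene reversed its direction where called: of 690 gene values under an alternative, 619 kept their side of the threshold, 58 lost it and 13 gained it. Psme1 and Psme4 lost their calls in the comparisons of the combination only with the covariates. Over all genes, 1913 calls in the model comparison became 349 with only its 2 groups and 102 with the hypothalamus score, and the vestitol and salviolone counts of 0 and 4 became 44 and 116 with DESeq2; the causes were not tested. Of all values from 4 to 39 in the table, 44.3% were multiples of 4, and dividing counts by 4 moved no count of proteasome genes by over 1.5 times.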

Other observations

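Nfe2l1, which encodes a transcription factor known to induce proteasome genes, had 2 separate ranges of values. It was at 108.3 CPM in wild type mouse 1, 112.2 and 137.7 CPM in model control mice 2 and 5, 114.3 CPM in salviolone mouse 3, and 113.1 and 114.2 CPM in combination mice 1 and 4. In the other 19 mice, all 5 vestitol mice among them, it was between 413.3 and 522.7 CPM. It was called in no comparison, with an SE of 0.52 on the log2 scale in each. Whether the 2 ranges come from the mice or from the counting of reads was not tested.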
